A study of Mus musculus with 30 samples.

Results

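DNA methylation was read at 344 CpGs in and around 10 genes that control lipid and energy metabolism, Ppara, Pparg, Ppargc1a, Srebf1, Fasn, Scd1, Lep, Insr, Irs1 and Pik3r1, in sperm of mice that had drunk cadmium. The CpGs were taken from 3000 bp before to 3000 bp after each RefSeq gene body on GRCm38 and had 10 or more reads in every mouse. They are 344 of the 416876 CpGs measured that deeply in all 30 libraries, and the 10 genes are 10 of 34337 annotated. The method was reduced representation bisulfite sequencing (RRBS), which cuts CpG-rich fragments out of genomic DNA and reads unmethylated cytosines as thymine. Sperm came from both cauda epididymides, where mature sperm are stored, of C57BL/6J males housed singly. The 15 cadmium mice had 0.9 ppm cadmium in their reverse-osmosis drinking water, prepared from cadmium chloride, at an average dose of 0.68 mg per kg of body weight. The 15 vehicle mice drank reverse-osmosis water. All were 7 weeks old at the start, were sampled 9 weeks after treatment began, and ate the same diet with 10% of its energy from fat.

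These genes form connected layers of metabolic control. PPAR nuclear receptors bind fatty acids and switch on genes of fat burning or fat storage, with PGC-1alpha, the product of Ppargc1a, as a coactivator. SREBP-1, from Srebf1, switches on the enzymes that make fatty acids, and insulin and leptin tell cells how much fuel is at hand. Mature sperm are transcriptionally silent, and methylation at such genes in sperm has been studied in work on the exposure of fathers. CpG-rich promoters are usually unmethylated in mature sperm, while gene bodies and CpG-poor DNA are usually methylated.

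Coverage summed over cytosines ran from 57856937 to 79777446 in cadmium libraries and from 53591172 to 94090975 in vehicle libraries. A median of 65 reads in cadmium and 75 in vehicle mice covered the 344 CpGs, and single values rested on 10 to 954 reads. Reads of the same fragment are not independent molecules, so limits set from read numbers reflect counting error alone. Of 4 imprinted genes on a list of paternally methylated loci, the measured end of H19 read 93.8% in cadmium and 95.1% in vehicle mice and that of Meg3 28.9% and 28.2%. The measured ends of Rasgrf1 (1.29% in cadmium and 1.296% in vehicle mice) and Dlk1 (0.273% and 0.507%) were close to 0. These windows were set by gene ends and not by the methylated regions of the loci. Low values there therefore do not show that paternal methylation is missing. At the gene ends of 13 of the 27 genes on a list of maternal germline differentially methylated regions (DMRs), which sperm should lack methylation at, the mean level was 12.01% ± 4.32 in cadmium mice and 10.8% ± 6.40 in vehicle mice (SD, n = 15 each). The lowest and highest cadmium mice had 5.15% and 20.1%, and the lowest and highest vehicle mice 3.31% and 24.3%. This level takes only measured ends that averaged under 20% over all mice. The measured ends of Mest (31.0% in cadmium and 25.8% in vehicle mice) and Plagl1 (20.8% and 22.65%) averaged more and were left out.

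Sequences are shown for the 4 RefSeq starts, one each of Lep, Pparg, Fasn and Pik3r1, where measured CpGs fell in the 250 bases before the start, because these place the methylation values on the promoter itself. They are RefSeq sequences of GRCm38.p6, written 5′ to 3′ on the gene's strand, with the measured CpGs in capitals. The Lep window is chr6:29059971-29060220 on the plus strand. The window of the second listed Pparg start is chr6:115362099-115362348 on the plus strand. The Fasn window is chr11:120824548-120824797 and that of the first Pik3r1 start is chr13:101768218-101768467, both on the minus strand.
Lep: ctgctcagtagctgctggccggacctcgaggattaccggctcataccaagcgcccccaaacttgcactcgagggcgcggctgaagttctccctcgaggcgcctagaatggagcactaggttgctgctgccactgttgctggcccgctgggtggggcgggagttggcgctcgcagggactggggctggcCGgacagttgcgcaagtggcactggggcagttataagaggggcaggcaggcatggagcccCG
Pparg: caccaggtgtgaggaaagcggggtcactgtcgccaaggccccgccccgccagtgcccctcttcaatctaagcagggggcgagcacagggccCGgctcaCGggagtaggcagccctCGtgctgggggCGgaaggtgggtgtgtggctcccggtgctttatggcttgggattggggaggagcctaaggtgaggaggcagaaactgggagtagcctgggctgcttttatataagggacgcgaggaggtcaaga
Fasn: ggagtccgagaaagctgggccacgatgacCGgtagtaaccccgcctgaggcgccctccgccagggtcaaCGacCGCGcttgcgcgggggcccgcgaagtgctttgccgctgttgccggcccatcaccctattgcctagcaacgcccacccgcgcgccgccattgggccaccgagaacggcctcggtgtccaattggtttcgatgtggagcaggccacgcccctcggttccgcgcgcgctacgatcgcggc
Pik3r1: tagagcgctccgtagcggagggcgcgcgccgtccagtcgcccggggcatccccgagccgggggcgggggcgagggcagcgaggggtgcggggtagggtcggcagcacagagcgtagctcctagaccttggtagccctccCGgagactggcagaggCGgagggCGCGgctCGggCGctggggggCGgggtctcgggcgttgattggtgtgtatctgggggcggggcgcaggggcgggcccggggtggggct
The Fasn window held 33 CpGs, 1.11 times the number its C and G content would give by chance placement, and the Pik3r1 window 30 (0.909 times). The Lep window held 16 (0.606 times) and the Pparg window 12 (0.505 times), against a median ratio of 0.374 over all 32851 RefSeq promoter windows of that length. GGGCGG, a letter pattern known from Sp1 sites, occurred on either strand 4 times in the Pik3r1 window, 2 times in the Pparg window, 1 time in the Lep window and 0 times in the Fasn window. It was present in 32.7% of all promoter windows. CCAAT occurred 3 times in the Fasn window and in 33.8% of all windows. TATAA was counted 2 times each in the Lep and Pparg windows, where matches on the 2 strands can overlap, and was present in 22.8% of all windows.

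Most CpGs averaging under 20% lay within 1000 bp of a gene end or a listed RefSeq start, and no CpG over 80% did. Of the 344 CpGs, 271 (78.8%) averaged under 20% over all mice, 33 (9.59%) lay between 20 and 80%, and 40 (11.6%) were over 80%. Over all measured CpGs these shares were 65.1%, 12.9% and 22.0%. Of the 271 low CpGs, 211 lay within 1000 bp of a gene end or a listed RefSeq start. Of the other 60, 41 were in Ppargc1a, 16 in Pik3r1 and 3 in Irs1. Of the 33 partly methylated CpGs 6 lay that close to an end or start, and of the 40 over 80% none did. In Srebf1 the measured end was the one opposite its start, and no gene had measured CpGs at both ends. No methylated read was seen in any mouse at 80 CpGs, or 23.3% against 15.03% of all measured CpGs. With 1051 to 3775 reads per CpG over the 30 mice, such a 0 allows a level of up to 0.0795% to 0.285%. No measured CpG lay in the outer flanks, from 1000 to 3000 bp outside the genes.

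**Figure D1:**
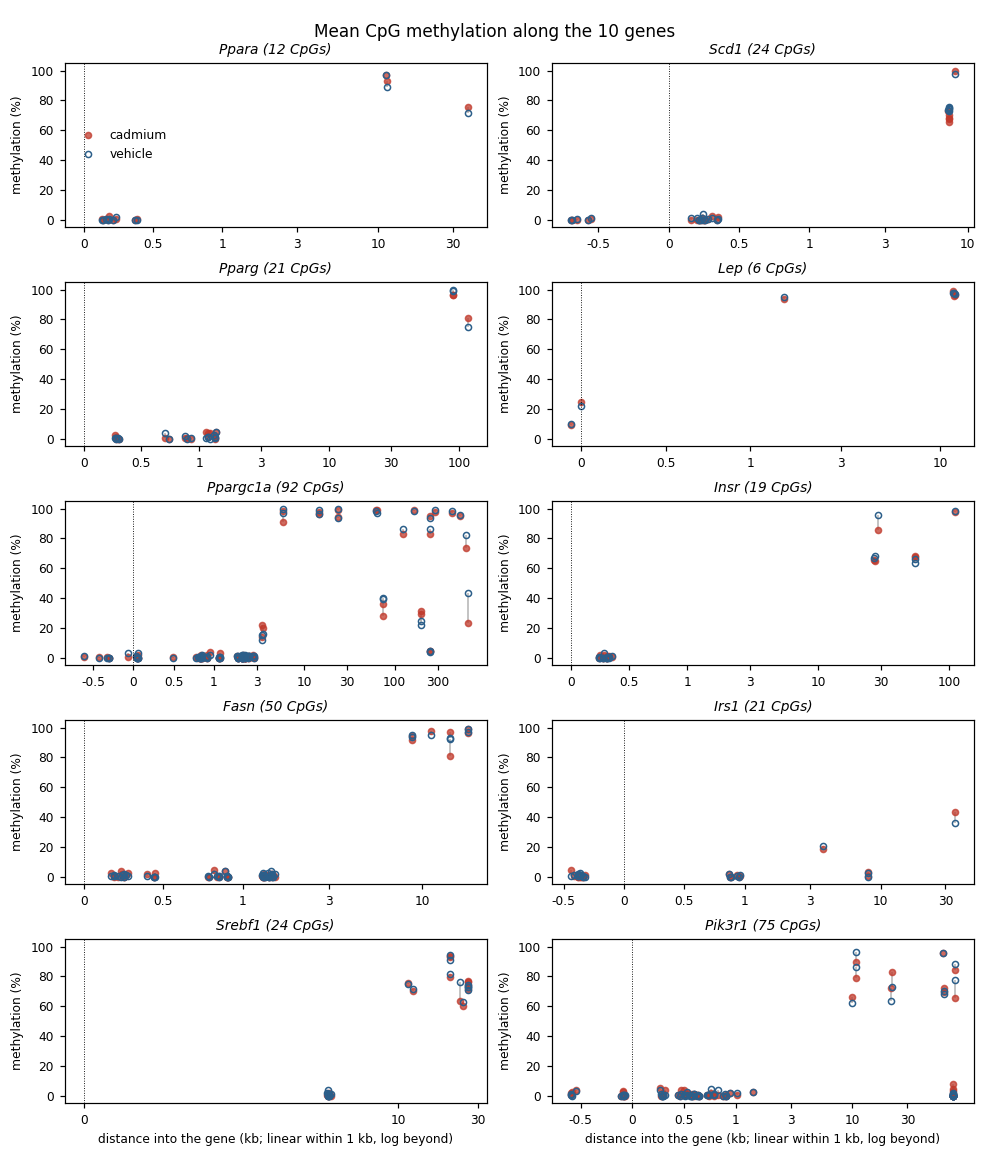
Mean methylation (y axis, percent) of each CpG in 15 cadmium mice (filled red) and 15 vehicle mice (open blue), with a grey line joining both means of a CpG. The x axis is the distance into the gene in kb (linear within 1 kb, log beyond) from the annotated gene end on the side of its start or, for Scd1 and Insr, from the end with the higher coordinate, drawn as a dotted line. CpGs near that line are close to 0% in 8 of the 10 genes, Srebf1 has none within 1 kb of it, and the Lep CpGs there are partly methylated.

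No CpG of the 10 genes differed between cadmium and vehicle mice after adjustment. The test was a logistic model of methylated and unmethylated reads with a dispersion term, fitted to each CpG and adjusted by the Benjamini-Hochberg method over all 416876 CpGs. It called 0 of the 344 CpGs at an adjusted p under 0.05, against 0.00168% of all CpGs. Before adjustment 32 of 344 (9.30%) had p under 0.05, against 10.3% of all CpGs. At that limit 13 of the 344 (3.78%) were higher in cadmium mice, against 5.55% of all CpGs, and 19 of the 344 (5.52%) were lower, against 4.71%. With limma on percent methylation, 0 CpGs were called and 1 of the 344 (0.291%) had an unadjusted p under 0.05, against 1.78% of all CpGs. The smallest adjusted p was 0.289. In 20 of the 32 CpGs with p under 0.05, every mouse of 1 group was at 0% and a few mice of the other were not. At no CpG were the groups free of overlap. Neither count was made over all measured CpGs, so neither sets these genes apart. The median difference over the 344 CpGs was 0 points, as over all CpGs, with 119 higher and 145 lower.

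Windows gave the same picture. Within 1000 bp of a gene end, 9 genes had a window with 3 or more CpGs, and 0 of the 9 were called, against 0% of 13538 gene ends. No window had an unadjusted p under 0.05 by the logistic model, against 5.76% of all ends, or by limma, against 4.18%. In the gene bodies, more than 1000 bp from both ends, 0 of 10 were called, against 0% of 10804, and 1 had an unadjusted p under 0.05, against 4.02%, while limma had 0, against 3.3%. The median difference was 0.00983 points over the 9 ends and -0.275 points over the 10 bodies, against 0.00442 and 0.218 points over all ends and bodies. Around the listed RefSeq starts, 0 of 7 windows were called, against 0% of 10854. None had an unadjusted p under 0.05 by the logistic model, against 5.82%, or by limma, against 4.28%. Of 32 clusters of 3 or more CpGs spaced 100 bp or less, 0 were called, against 0% of 44897, and 1 had an unadjusted p under 0.05 by the logistic model, against 6.01%, and 1 by limma, against 3.41%.

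**Figure D2:**
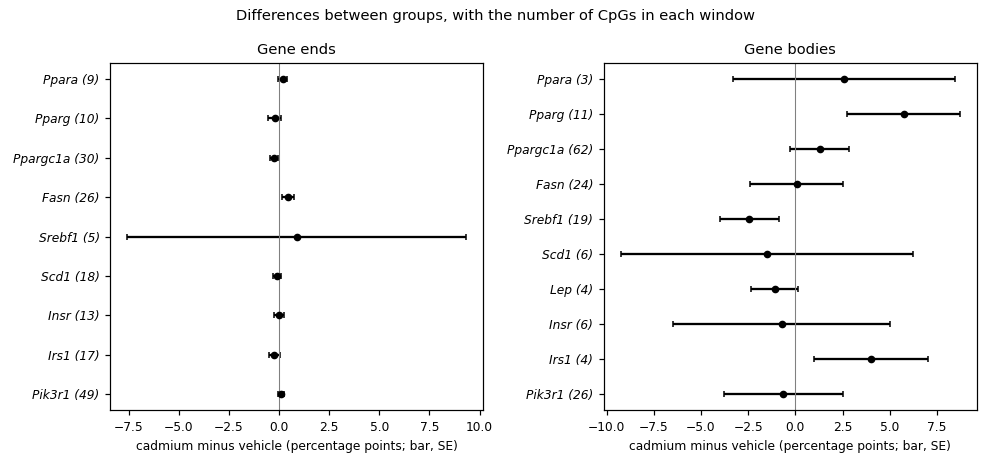
Difference in methylation between cadmium and vehicle mice (x axis, cadmium minus vehicle in percentage points; points are differences of group means, bars 1 SE, n = 15 each) for gene ends on the left and gene bodies on the right. Each row is a gene, with its number of CpGs in brackets. Gene ends other than that of Srebf1 lie within 0.434 points of 0, and the Pparg body is at 5.73 points in these windows of summed reads, or at 0.898 points with its CpGs weighted equally.

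The nuclear receptors and their coactivator had ends averaging under 1% in both groups. Ppara, the receptor that drives fatty acid burning in liver (chr15:85734910-85806851, plus strand), had 9 CpGs near its start end at 0.462% ± 0.723 in cadmium and 0.286% ± 0.594 in vehicle mice. Its lowest p was at the CpG at 85735144, inside that end. It stood at 0.0513% ± 0.199 in cadmium mice, with 1 mouse above 0%, and at 1.52% ± 4.04 in vehicle mice, with 3 above 0% (unadjusted p = 0.0320, adjusted p = 0.459). The 3 CpGs of the Ppara body were mostly methylated, at 86.1% ± 12.7 in cadmium and 83.5% ± 18.9 in vehicle mice. Among them the CpG at 85772358 varied most. It ran from 32.9% through a median of 77.5% to 100% in cadmium mice and from 26.3% through 76.5% to 100% in vehicle mice, so that the groups covered the same range.

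Pparg, the receptor that drives fat cell formation (chr6:115360879-115490404, plus strand), had a body difference that depended on how its CpGs were weighted. Its 11 body CpGs ran from 16.6% through a median of 28.4% to 49.8% in cadmium mice and from 13.4% through 23.5% to 36.0% in vehicle mice. The means were 31.0% ± 9.40 for cadmium and 25.3% ± 6.71 for vehicle mice, a difference of 5.73 ± 2.98 points (SE), with an unadjusted p of 0.0408 and an adjusted p of 1.000. With the 11 CpGs weighted equally in place of by their reads, the difference was 0.898 points (limma, adjusted p = 1.000). This body joins CpGs of different kinds. The 8 between 115362005 and 115362225, at the second listed start shown above, were at 2.40% ± 3.17 in cadmium and 1.42% ± 1.59 in vehicle mice, while the CpG at 115477563 was at 81.2% ± 20.6 in cadmium and 74.9% ± 30.2 in vehicle mice. The window around the second start was at 1.71% ± 2.20 in cadmium and 1.36% ± 1.13 in vehicle mice (adjusted p = 0.997). That around the first start was at 1.27% ± 1.33 in cadmium and 0.657% ± 0.666 in vehicle mice (unadjusted p = 0.0809, adjusted p = 0.867). The CpG with the lowest p, at 115362005, lies just before the printed window. It stood at 4.29% ± 9.17 in cadmium mice, with 3 mice above 0% and a highest of 26.2%, and at 0.159% ± 0.615 in vehicle mice, with 1 above 0% (unadjusted p = 0.00404, adjusted p = 0.326). In both groups the median mouse was at 0%. The 10 CpGs at the gene end were at 0.484% ± 0.747 in cadmium and 0.697% ± 1.02 in vehicle mice.

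Ppargc1a, the coactivator of mitochondrial and fasting genes (chr5:51454249-52115853, minus strand), held 92 of the CpGs. Its annotated body reaches far beyond its single listed start at 51567725, and no measured CpG lay within 1000 bp of that start. Most of the values therefore describe the far upstream end of the annotation. At that end 66 of the 92 CpGs, from 3000 bp inside the upper end outward, all averaged 2.42% or less. The others lay farther inside the gene body, and among them 6 were partly and 15 highly methylated. The 30 within 1000 bp of the end were at 0.456% ± 0.532 in cadmium and 0.690% ± 0.526 in vehicle mice. At the next measured CpGs inward the level was higher. The 3 CpGs between 52112388 and 52112408 ran from 0% through a median of 23.4% to 41.9% in cadmium mice and from 0% through 11.9% to 42.7% in vehicle mice. Their means were 19.1% ± 14.5 in cadmium and 14.8% ± 13.1 in vehicle mice (adjusted p = 0.999). The body window, more than 1000 bp from both ends, was at 40.0% ± 5.11 in cadmium and 38.7% ± 3.21 in vehicle mice.

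The largest difference at any CpG of the 10 genes was in Ppargc1a, at 51474294 in the gene body, and was chosen here after its value was seen. It ran from 0% through a median of 18.1% to 64.7% in cadmium mice and from 0% through 44.4% to 100% in vehicle mice. The groups overlapped over most of their range. The mean was 22.9% ± 20.7 for cadmium and 43.2% ± 34.0 for vehicle mice, with an unadjusted p of 0.0386 and an adjusted p of 0.468, on a median of 36.5 reads. In all, 7 CpGs differed by 10 points or more, and none of them passed adjustment. The others were at 52040998 in Ppargc1a, 120810929 in Fasn, 60200589 in Srebf1, 44400115 in Scd1, and 101691588 and 101746320 in Pik3r1. All 7 lay in gene bodies, and 6 of the 7 were lower in cadmium mice. How many of all measured CpGs differ by this much, and in which direction, was not counted, so no direction is read from these 7. The CpG with the lowest p in Ppargc1a, at 52114940 near the upper end, was at 1.72% ± 4.58 in cadmium mice, with 2 above 0%, and at 0% in all vehicle mice, where 1548 reads allow up to 0.194% (adjusted p = 0.412).

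In the 3 genes of fatty acid synthesis, low CpGs lay near a gene end or a listed start, and methylated CpGs lay inside or at the far end of Srebf1. The end opposite to the low CpGs was measured in Srebf1, with 5 CpGs, and held 0 measured CpGs in Fasn and Scd1. Srebf1, the transcription factor of lipid synthesis (chr11:60199084-60224186, minus strand), was measured at both sides. The 13 CpGs between 60220242 and 60220430, inside its second listed start, were at 0.278% ± 0.2997 in cadmium and 0.437% ± 0.383 in vehicle mice. The 5 CpGs at its far end were partly methylated and differed widely between mice. They ran from 48.8% through a median of 76.0% to 97.7% in cadmium mice and from 9.24% through 83.1% to 97.0% in vehicle mice. The means were 72.8% ± 17.6 in cadmium and 71.9% ± 27.6 in vehicle mice, a difference of 0.890 ± 8.46 points (SE, adjusted p = 0.999). Of these CpGs 4, between 60198123 and 60198158, lie outside Srebf1 and inside the neighbouring gene Rai1, which overlaps the end of Srebf1. Their values therefore describe Rai1 and the near flank of Srebf1. The CpG at 60199707 lies inside Srebf1. The body window was at 16.0% ± 4.73 in cadmium and 18.4% ± 3.92 in vehicle mice (unadjusted p = 0.0796, adjusted p = 1.000). In it the CpG at 60200589 averaged 63.5% ± 25.02 in cadmium and 76.2% ± 23.6 in vehicle mice (unadjusted p = 0.0364, adjusted p = 0.465).

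Fasn, the enzyme that builds palmitate (chr11:120805958-120825166, minus strand), had 43 of its 50 CpGs under 20% and 7 over 80%. Its body window, with 24 CpGs of both kinds, was at 29.5% ± 4.76 in cadmium and 29.4% ± 8.26 in vehicle mice. The 43 CpGs within 1000 bp of the listed start were at 0.762% ± 0.644 in cadmium and 0.729% ± 0.919 in vehicle mice (adjusted p = 0.999). The 26 at the gene end, which share CpGs with that window, were at 0.958% ± 1.06 in cadmium and 0.524% ± 0.481 in vehicle mice (unadjusted p = 0.168, adjusted p = 0.952), the lowest p of the 9 end windows. The 4 CpGs between 120824721 and 120824767, which are those in capitals in the Fasn sequence, were at 1.20% ± 3.01 in cadmium and 0.104% ± 0.402 in vehicle mice (unadjusted p = 0.0616, adjusted p = 0.855). The CpG with the lowest p, at 120823701, stood at 1.20% ± 3.18 in cadmium mice, with 2 above 0%, and at 0% in all vehicle mice (unadjusted p = 0.005985, adjusted p = 0.352). Deeper in the body, the CpG at 120810929 ran from 47.1% through a median of 83.6% to 100% in cadmium mice and from 55.0% through 100% to 100% in vehicle mice. Its means were 80.9% ± 17.7 in cadmium and 92.2% ± 12.8 in vehicle mice (unadjusted p = 0.0278, adjusted p = 0.451), whereas the CpG at 120810957 was at 96.7% ± 6.47 in cadmium and 93.0% ± 9.20 in vehicle mice.

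Scd1, the desaturase that turns saturated into monounsaturated fatty acids (chr19:44394450-44407709), had 18 CpGs close to 0% at its end with the higher coordinate, at 0.459% ± 0.471 in cadmium and 0.564% ± 0.661 in vehicle mice. Inside the gene, 5 CpGs between 44400098 and 44400174 were partly methylated. Together they ran from 27.0% through a median of 78.7% to 100% in cadmium mice and from 28.4% through 80.9% to 99.7% in vehicle mice. The means were 69.9% ± 24.3 in cadmium and 73.5% ± 24.9 in vehicle mice, a difference of -3.60 ± 8.99 points (SE, adjusted p = 0.999). The spread between mice was thus larger than the difference between groups. A CpG upstream of them in coordinate, at 44399439, was nearly fully methylated, at 99.5% ± 1.71 in cadmium and 97.8% ± 4.61 in vehicle mice. The lowest p in Scd1, at 44407465, came from 3 vehicle mice. It was at 0% in all cadmium mice, where 893 reads allow up to 0.336%, and at 3.57% ± 9.82 in vehicle mice with a highest of 35.0% (adjusted p = 0.452).

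Lep, which encodes the fat cell hormone leptin (chr6:29060221-29073876, plus strand), was the gene of the 10 whose measured start CpGs were not close to 0%. Both are the capitals in the Lep sequence above. The CpG at position -62 from the start ran from 0% through a median of 6.52% to 31.3% in cadmium mice and from 0% through 8.475% to 30.4% in vehicle mice, with means of 9.07% ± 10.9 in cadmium and 9.80% ± 10.0 in vehicle mice. The CpG at position -2 ran from 0% through 23.3% to 63.9% in cadmium mice and from 0% through 18.3% to 81.0% in vehicle mice. Its means were 24.4% ± 20.1 in cadmium and 22.2% ± 22.5 in vehicle mice (adjusted p = 0.975). At -62, 9 mice of each group were above 0%, and at -2 12 cadmium and 13 vehicle mice were. The 4 CpGs of the Lep body were methylated at 96.2% ± 3.91 in cadmium and 97.3% ± 2.77 in vehicle mice. The lowest p in Lep was at one of them, 29072012, with 95.8% ± 7.42 in cadmium and 97.7% ± 3.78 in vehicle mice (unadjusted p = 0.363, adjusted p = 0.805). Among all 10854 start windows with 3 or more CpGs, 87.9% averaged under 5%, 5.11% lay at 5 to 20% and 5.30% at 20 to 80%. With 2 CpGs the Lep start is not one of these windows.

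**Figure D3:**
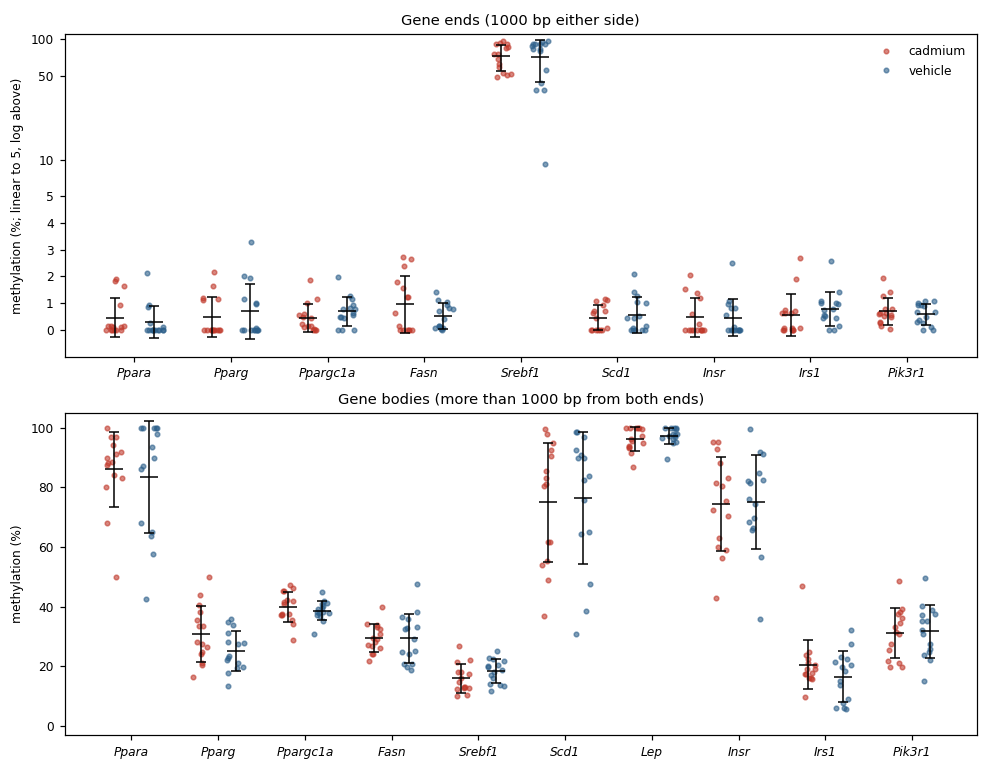
Methylation (y axis, percent) of the gene end windows (top; linear to 5%, log above) and gene body windows (bottom) in each mouse, with cadmium mice in red on the left and vehicle mice in blue on the right of each gene. Black lines are the mean and SD of 15 mice. End windows other than that of Srebf1 are at most 3.30% in every mouse, and the groups overlap in every window; Lep has no end window because it has only 2 CpGs there.

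The insulin signalling genes had ends that averaged 0.456% to 0.778% in both groups. Insr, the insulin receptor (chr8:3150922-3279649), had 13 CpGs at its end with the higher coordinate, at 0.466% ± 0.711 in cadmium and 0.456% ± 0.7002 in vehicle mice. Among them the CpG at 3279402 was at 1.47% ± 3.93 in cadmium mice, with 2 above 0%, and every vehicle mouse was at 0% (adjusted p = 0.414). In the Insr body a pair of CpGs at 3225493 and 3225524 and another pair at 3252787 and 3252922 were partly methylated, each averaging 63.2% to 68.4% in both groups. The body window ran from 42.8% through a median of 75.4% to 95.3% in cadmium mice and from 36.1% through 76.1% to 99.7% in vehicle mice. Its means were 74.4% ± 15.8 in cadmium and 75.2% ± 15.8 in vehicle mice.

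Irs1, the adaptor that passes on the insulin signal (chr1:82233105-82291439, minus strand), had 17 CpGs at its start end, at 0.543% ± 0.784 in cadmium and 0.778% ± 0.641 in vehicle mice (adjusted p = 0.987). The CpG with the lowest p, at 82291818, was at 0% in all cadmium mice, where 1356 reads allow up to 0.221%, and at 1.497% ± 3.95 in vehicle mice with 2 above 0% (adjusted p = 0.408). No Irs1 CpG averaged over 80%. In its body the CpG at 82256220 ran from 16.1% through a median of 37.9% to 97.6% in cadmium mice and from 0% through 37.8% to 92.1% in vehicle mice, with means of 43.0% ± 20.7 in cadmium and 35.9% ± 22.1 in vehicle mice. The CpG at 82287663, 3776 bp inside the start, was at 18.7% ± 19.4 in cadmium and 20.8% ± 23.5 in vehicle mice, where 1 mouse reached 90.4% and the next highest of all mice 54.6%.

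Pik3r1, the regulatory subunit of PI 3-kinase (chr13:101680761-101768217, minus strand), held the CpG with the smallest p of all 344. It is at 101768799, -582 bp from the first start. It was at 2.62% ± 7.03 in cadmium mice, with 2 above 0% and a highest of 22.95%, and at 0% in all vehicle mice, where 997 reads allow up to 0.301% (unadjusted p = 0.00232, adjusted p = 0.289). The 49 CpGs at that end were at 0.692% ± 0.504 in cadmium and 0.590% ± 0.396 in vehicle mice. The 7 CpGs between 101768283 and 101768327, in capitals in the Pik3r1 sequence, were at 0.736% ± 1.96 in cadmium and 0.107% ± 0.372 in vehicle mice (adjusted p = 0.999). A second low stretch lay upstream of the second listed start at 101692630, more than 1000 bp from it. Its 9 CpGs between 101694603 and 101694671 were at 0.812% ± 1.19 in cadmium and 0.132% ± 0.324 in vehicle mice, the one cluster with an unadjusted p under 0.05 (p = 0.0247, adjusted p = 0.712). Its difference of 0.681 points was 0.0560 points with a minimum of 20 reads, which left 7 of the 9 CpGs. With CpGs covered in 10 mice per group the difference was 0.190 points. It was 1.298 points with the CpGs weighted equally, and 0.6715 points with the maternal germline DMR level in the model. In this cluster 1 CpG, at 101694644, reached 70.6% in 1 cadmium mouse and 38.5% in the next highest, and 0% in all vehicle mice. The Pik3r1 body was at 31.1% ± 8.40 in cadmium and 31.8% ± 8.78 in vehicle mice.

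A few low CpGs were high in 1 or a few mice. Of the 344 CpGs, 7 averaged under 20% and reached 50% or more in at least 1 mouse, 2 in Ppargc1a, 1 in Fasn, 1 in Irs1 and 3 in Pik3r1. In the 3 of Ppargc1a and Irs1, 11 or 12 mice of each group were above 0%, and the highest mouse and the next had 50% and 42.7% at 52112388 and 60% and 53.9% at 52112392. In the other 4, all averaging under 5%, the highest mouse was a cadmium mouse, and a different one each time. In Fasn it was at 120824349, with 53.3% in the highest mouse and 16.4% in the next. In Pik3r1 the CpG at 101767948 had 51.9% and 24.1%, and that at 101768762 had 51.5% and 24.0%. How many of all measured low CpGs have such a mouse, and in which group, was not counted. No group difference is therefore read from these single values.

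Spread between mice followed the level of the CpG. In the 33 partly methylated CpGs the SD between mice had a median of 22.7 points for cadmium and 25.7 for vehicle mice, and over all measured CpGs of 20 to 80% the median SD over 30 mice was 22.7 points. In the low CpGs that median was 0.228 for cadmium and 0.438 for vehicle mice, against 1.94 points over all measured CpGs of that level. In those over 80% it was 7.73 for cadmium and 7.56 for vehicle mice, against 8.16 points over all. The SDs for these genes were taken within each group, and those over all measured CpGs over the 30 mice of both groups. At 86 CpGs of these genes every mouse of a group was at 0% and the other group was not. The SD within that group is then 0. The medians of the low CpGs are therefore unlike measures, and no smaller spread in these genes is read from them. The median difference was -0.336 points at partly methylated and -1.02 at highly methylated CpGs, against 0.784 and -0.00478 points over all CpGs of those levels. With this spread, the SE of the difference was 8.46 points at the far end of Srebf1 and 8.99 points at the Scd1 cluster, so that differences of a few points could not be detected there.

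The partly methylated CpGs moved across mice with the maternal germline DMR level. This was tested with limma on percent methylation, with the treatment group in the model. The slope passed the threshold at 34 of the 344 CpGs (9.88%), against 8.66% of all CpGs, and rose at 7 of the 344 (2.03%), against 4.48% of all. Among the CpGs past the threshold, 7 of 34 (20.6%) rose, against 51.7% of all that passed. Of the 33 CpGs between 20 and 80%, 29 passed (87.9%), against 48.7% of all CpGs of that level. Those 33 were 7 at 20 to 50% and 26 at 50 to 80%, against 25863 and 27823 of all measured CpGs. The shares that rose thus compare unlike mixes of levels. Neighbouring CpGs count singly here, among them 5 of Scd1 within 77 bp and 4 of Srebf1 within 36 bp. All 7 that rose averaged under 50%, and all 27 that fell averaged over 50%. Over all measured CpGs the direction also went with the level: of those at 20 to 50%, 49.5% rose and 3.13% fell, and of those at 50 to 80%, 39.2% fell and 5.74% rose. Of the 13 gene ends behind the level, Blcap, Herc3 and Grb10 averaged 0.871%, 0.339% and 0.906%, and the other 10 averaged 6.92% to 19.7%. The part of DNA from other cells in these slopes was not tested.

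The steepest slopes lay in Scd1, with -4.26 ± 0.750 points (SE) per point of the maternal level at 44400098 (adjusted p = 3.83e-04), and the smallest adjusted p in Insr at 3225524, with -3.42 ± 0.459 (adjusted p = 2.58e-05). At the far end of Srebf1 the slope was -3.17 ± 0.532 (adjusted p = 8.47e-05), the one of 9 end windows past the threshold, against 11.9% of all ends. Slopes that rose were found at the Lep CpG at position -2, with 2.50 ± 0.570 (adjusted p = 0.00415), at 82256220 in Irs1, with 2.63 ± 0.550 (adjusted p = 0.00192), and at 5 CpGs of Ppargc1a, among them 51922395 with 2.31 ± 0.397 (adjusted p = 3.04e-04). Group means at that Ppargc1a CpG were 29.5% ± 14.6 in cadmium and 21.8% ± 19.2 in vehicle mice. The CpG with the largest difference between groups, at 51474294, was also among them, with 2.78 ± 0.820 (adjusted p = 0.0288). Without the 3 mice over 20% at the maternal DMRs, the slope was 0.878 at the Lep CpG at -2 (adjusted p = 0.841), 0.964 at 51474294 (adjusted p = 0.988) and 2.45 at the Irs1 CpG (adjusted p = 0.153). Those at 44400098 in Scd1, at 3225524 in Insr, at 51922395 in Ppargc1a and at the Srebf1 end passed without these mice. The Lep CpG at -62 did not pass with all mice (0.223 ± 0.361, adjusted p = 1.000).

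Of the 10 gene bodies 6 passed, against 40.6% of all bodies. Irs1 rose by 1.13 ± 0.192 points per point. Insr (-2.45 ± 0.286), Scd1 (-2.87 ± 0.489), Ppara (-1.89 ± 0.424), Pik3r1 (-1.13 ± 0.207) and Fasn (-0.762 ± 0.184) fell. The Lep, Pparg, Srebf1 and Ppargc1a bodies did not pass, and 13.3% of all bodies rose. Of the 32 CpG clusters 3 passed, against 19.4% of all, in Scd1, Srebf1 and Ppargc1a. In the vehicle mice alone 24 CpGs, the end of Srebf1 and 6 bodies passed, and in the cadmium mice alone 0 CpGs (smallest adjusted p = 0.104), 0 ends and 2 bodies, Insr and Irs1. Whether the slopes differ between the groups was not tested. Leaving out the 3 mice over 20% at the maternal DMRs (cadmium mouse 13 and vehicle mice 4 and 13) left 7 CpGs, 6 of them among the 34, and 4 bodies. In each of these fits all 34 slopes kept their sign. None of the 344 CpGs differed between groups with the maternal level in the model.

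**Figure D4:**
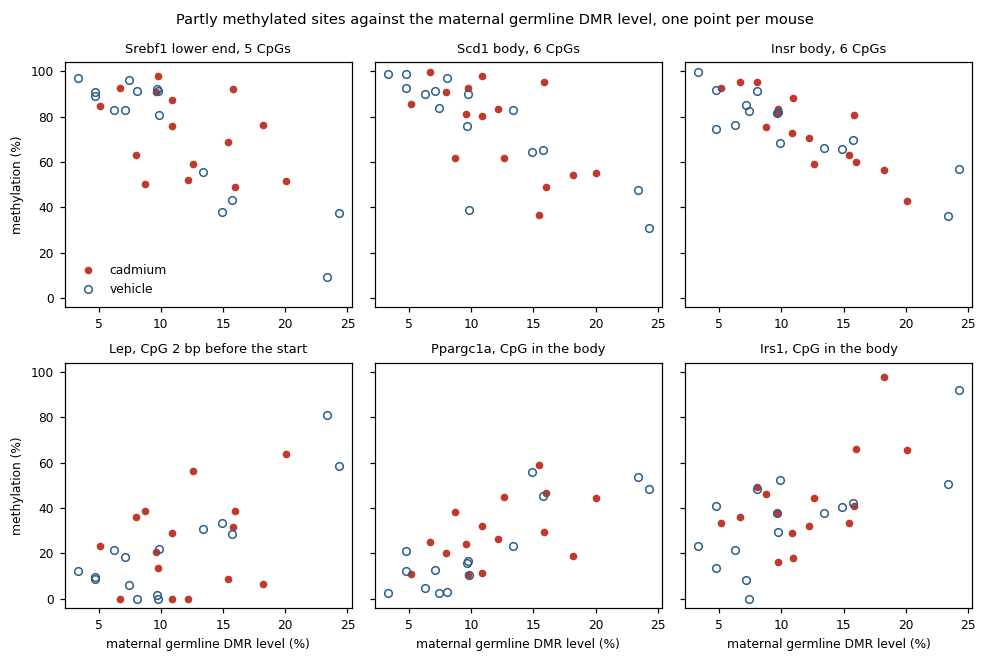
Methylation (y axis, percent) of 6 partly methylated sites against the maternal germline DMR level (x axis, percent), 1 point per mouse, with cadmium mice in filled red and vehicle mice in open blue. The Srebf1, Scd1 and Insr sites in the top row are lower in mice with a higher level, and the Lep, Ppargc1a and Irs1 CpGs in the bottom row are higher, with both groups spread over the same field. The 6 sites were picked with their slopes known, so their trends do not stand for all 344 CpGs, of which 34 passed the threshold.

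**Figure D5:**
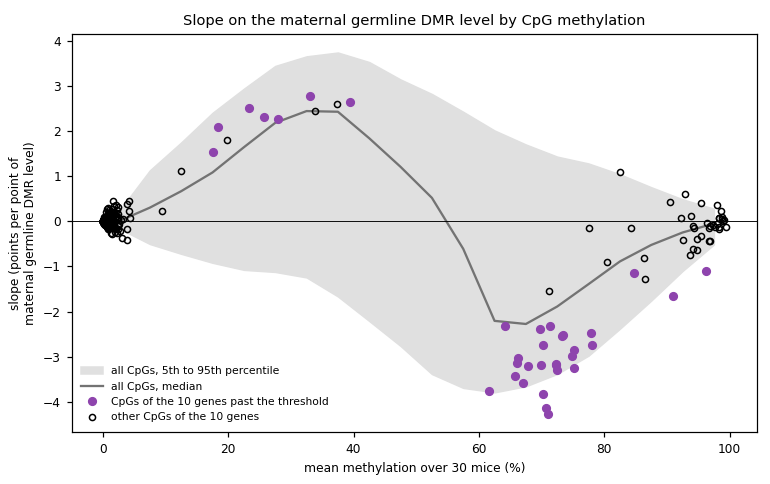
Slope on the maternal germline DMR level (y axis, percentage points per point) of the 344 CpGs against their mean methylation over 30 mice (x axis, percent). Filled purple points passed the threshold, open points did not, the grey line is the median and the shaded band the 5th to 95th percentile of all 416876 CpGs; the 7 rising points lie left of 50% and the 27 falling points right of it.

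Other genes of the same control network showed no difference either. Of a list of 50, among them AMP-kinase, the liver X receptors, the leptin receptor, carnitine palmitoyltransferases and further insulin signalling genes, 41 had a gene end with 3 or more CpGs, in 43 windows. Of these windows 0 were called and 0 had an unadjusted p under 0.05, against 5.76% of all ends. All 43 averaged under 20%, and 41 under 5%. The median difference was 0.0200 points, against 0.00442 points over all ends. The lowest p of those higher in cadmium mice were at Scd2, a second desaturase, with 1.28% ± 1.75 in cadmium and 0.255% ± 0.989 in vehicle mice (unadjusted p = 0.0623), and at Prkaa1, a catalytic subunit of AMP-kinase, with 0.616% ± 0.503 in cadmium and 0.391% ± 0.410 in vehicle mice (unadjusted p = 0.128). Of those lower they were at Elovl6, a fatty acid elongase, with 0.529% ± 0.546 in cadmium and 1.11% ± 1.08 in vehicle mice (unadjusted p = 0.0571), and at Mtor, the nutrient-sensing kinase, with 1.14% ± 1.01 in cadmium and 1.65% ± 1.59 in vehicle mice (unadjusted p = 0.174).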

How the data were processed

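Each of the 30 libraries is 1 mouse. Per strand, the files deposited by the authors give a read count and a methylated fraction at every CpG cytosine. Tools named in the submitters' processing notes, without roles, are methylKit 1.12.0, Bismark 0.22.3, Trim Galore 0.5.0 and bcl2fastq, with the builds GRCm38 and mm10. Methylated reads were the rounded product of fraction and count, which missed a whole number by over 0.1 at no more than 1 cytosine per library. Both strands were summed. Gene ends are 1000 bp either side of each RefSeq (GRCm38.p6) gene end, windows need 3 CpGs, and reads are summed over a window. The annotation used has no exons, and no strand for Scd1 and Insr. Groups were compared with a quasi-binomial logistic model (Pearson dispersion of at least 1, F test; numpy 2.4.6, scipy 1.17.1, Python 3.11.15), adjusted by Benjamini-Hochberg over all features of a kind, and differences are between unweighted means of the mice. Slopes and alternatives used limma 3.58.1 (R 4.3.3). The script was tested on simulated data. No pair of the 435 looked like 1 library deposited again (chi-square per CpG at least 8.57 over 20000 CpGs).

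The 10 genes and all lists were chosen with earlier results of these data known. Named were, for each gene, the CpG with the smallest p and the one closest to 50%, all member windows, and the 2 pathway ends with the smallest p in each direction. The maternal level is the mean over 13 gene ends averaging under 20%, and the limit for leaving out mice was set after seeing it, as were start windows and clusters.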

Additional observations from a re-analysis of the deposited data

How the results depend on the processing

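Under every alternative run (minimum coverage of 5 or 20 reads, CpGs covered in 10 mice per group rather than in all, an upper coverage limit, limma without and with a replicate block or the maternal germline DMR level, unweighted window means, other window sizes, and leaving out the 3 mice over 20% at the maternal DMRs) 0 CpGs, ends, bodies, start windows and clusters of the 10 genes were called between groups. Flanks gave a window to test only with CpGs covered in 10 mice per group, where 1 window was not called (adjusted p = 0.998). Leaving out mice over 25% gave no value, because no mouse was over it. Of 58 named differences, 18 changed sign at least once, in 30 of 516 recomputed values, none of them called (smallest adjusted p over all alternatives 0.271); the cause was not tested. A further 93 kept their sign and moved by over 1.5 times, among them the unweighted means of the Pparg body (0.898) and the Scd1 body (-4.24, against -1.51). With 20 reads the differences were 0.409 points at the Pparg end, 0.0489 at the Scd1 end, -0.179 in the Ppargc1a body, 1.04 in the Insr body and -0.116 at the Prkaa1 end, and with 5 reads -0.0855 at the Insr end and 0.665 in the Insr body. With CpGs covered in 10 mice per group they were 0.257 at the Pparg end, 0.201 at the Scd1 end, -0.420 in the Irs1 body, 0.720 in the Pik3r1 body and -0.763 in the Ppara body. Without the 3 mice they were -5.03 at the Srebf1 end, -3.94 at its cluster, -0.853 in the Fasn body and -0.0727 at the second Pparg start. With windows of 500 bp they were 0.409 at the Pparg end and 0.0269 at the Elovl6 end, and over the whole body 1.51 in Insr, -0.600 in Fasn and 0.394 in Pik3r1. Unweighted means gave -0.605 in the Ppargc1a, -0.650 in the Fasn and 0.305 in the Pik3r1 body. With the maternal level in the model they were 2.12 in the Insr, 0.679 in the Pik3r1 and 1.82 in the Scd1 body, 0.278 at the Scd1 cluster, 1.42 at 60199707 in Srebf1 and -0.619 at the Lep CpG at -2.

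The slope on the maternal level passed at 34 CpGs, 1 end and 6 bodies. Without the 3 mice these were 7, 1 and 4, in cadmium mice alone 0, 0 and 2, and with a replicate block 3, 0 and 3. Whether replicate numbers pair the mice was not settled. Of 15 same-numbered pairs, 6 correlated above 0.1 (from -0.269 to 0.694), and 2 of 15 had their best match at their own number. The share above 0.1 among differently numbered pairs is not set beside this, so pairing cannot be judged from it. The block changed no call between groups. At CpGs of 20 to 80% the median dispersion was 21.0 times the error of counting independent reads. Spread between mice and reads that share a molecule cannot be told apart in it.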
